A study of Mus musculus with 9 samples.

Results

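Neck skin with oxazolone dermatitis was compared with control neck skin across 30142 genes. The comparison used 6 of the 9 arrays of the series, chosen by their titles: 3 of skin from mice given oxazolone and 3 of skin from control mice. All 6 came from male C57BL/6 mice of 6 to 8 weeks, a common inbred strain, and no mutant allele or transgene is given for either group. Oxazolone is a reactive chemical used to raise contact allergy. It was painted on the shaved abdomen at 2.0%, and after 5 days a 0.5% solution in 40 µl acetone was painted on the shaved nape, 5 times in all up to day 8. Skin was collected 4 hours after the last painting. The 3 other arrays are of skin from mice of the same strain, sex and age given urushiol, the allergen of lacquer tree and poison ivy sap, in the same doses and times as oxazolone. They enter the fit below for its estimate of spread alone and are not compared. Control skin is labelled healthy, and whether control mice were shaved or given acetone, and the hour at which skin was taken, are not given in the sources used here. The labels call the 3 samples of a group biological replicates.

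Contact dermatitis of this kind is a T cell response to a small chemical that has bound to skin proteins. Cells that grow, secrete or fight stress need ribosomes, amino acids, folding enzymes, polyamines and metals, and the epidermis also controls water, vitamin A and matrix around it. The results follow such functions rather than the cytokines and antimicrobial proteins for which the model is best known.

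By limma, fitted to the 9 arrays together with p-values adjusted over the 30142 genes (Benjamini-Hochberg, threshold 0.05), 2904 genes were higher in oxazolone skin and 2085 were lower. By at least 2-fold, 1376 were higher and 1011 lower. At an unadjusted p under 0.05 there were 10277 genes. Of the calls 58.2% were higher, against 42.6% after quantile renormalisation and 48.9% after median centring, so the balance of rises and falls depends on the scaling. The called share was 16.6% of genes, 9.63% higher and 6.92% lower, and these shares over all genes are the background for the counts below. Without predicted, microRNA, snoRNA and sensory receptor genes, 11.4% of the 17944 other genes were higher and 10.8% lower. Against that share, lower counts in the lists stand out less than against 6.92%. Among 971 measured members of 38 pathway and family lists, 182 (18.7%) were higher and 140 (14.4%) lower. With 3 arrays a group, exact permutation of the labels gives a single gene no p under 0.1, and the adjusted p-values below rest on limma's pooled spread. In what follows, ± gives limma's moderated standard error of oxazolone minus control on the log2 scale (n = 3 and 3). It uses the spread pooled over the 9 arrays, so it does not describe the 6 compared arrays alone. Each adjusted p is limma's, and 3 values in a row are arrays 1, 2 and 3 of a group. Where leaving out single arrays ended a call, their number out of 9 or their names are given with the highest adjusted p. Deposited values run up to 19.93, and the step that took them past 16 is not given, so a log2 difference here may not equal the log2 ratio of RNA amounts. Negative control features had medians of 6.78 to 7.17 on the 6 compared arrays, and all transcript clusters 5.53 to 5.64. Values below the negative control medians are not shown to lie above background. The control skin values of Slc7a11, Lrat, Slfn4, Fgf23, Apol9b and Mir155 below are among them. Atf5, Lgals4 and Mir34a lay below the negative control median on each of the 6 compared arrays, and Mir146b at or below it. The calls of these genes may thus lie within background.

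The control arrays were not alike. Pearson's r across genes, which are not independent replicates, was 0.995 between control arrays 1 and 2. Control array 3 had r of 0.979 and 0.978 with them and 0.969 to 0.971 with the oxazolone arrays. Mean levels of 11 hair follicle markers were 6.11, 6.42 and 12.06 in control skin and 11.08, 13.96 and 12.18 in oxazolone skin. Means of 10 skeletal muscle markers were 17.46, 17.42 and 14.86 in control skin and 7.89, 6.96 and 8.73 in oxazolone skin. Keratinocyte markers, which define the labelled tissue, averaged 13.74 to 14.91 on the 6 arrays. Without control array 3, 15.8% of genes were called higher and 10.8% lower, and 93.7% of the calls made with it were among them. Without control arrays 1 or 2, the counts of higher genes were 1102 and 1153. Oxazolone arrays 1, 2 and 3 left out in turn gave 1362, 1674 and 1456 higher genes, and leaving out urushiol array 3, which adds to the pooled spread alone, gave 1737. Fitted on the 6 compared arrays alone, called higher were 14 snoRNA genes, 3 ribosome assembly genes and 1 ribosomal protein gene, and called lower were 3 clock genes, 6 of fatty acid and branched-chain amino acid breakdown and 7 nuclear receptors, all counts below those given for them in the text. In whole skin, fewer cells of a type and less RNA per cell cannot be told apart. Control array 3 was the highest control for several genes that rose, among them Nop58, Fabp5, Car12 and Casp14. The part of hair follicle RNA in the rises below was not tested.

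**Figure D1:**
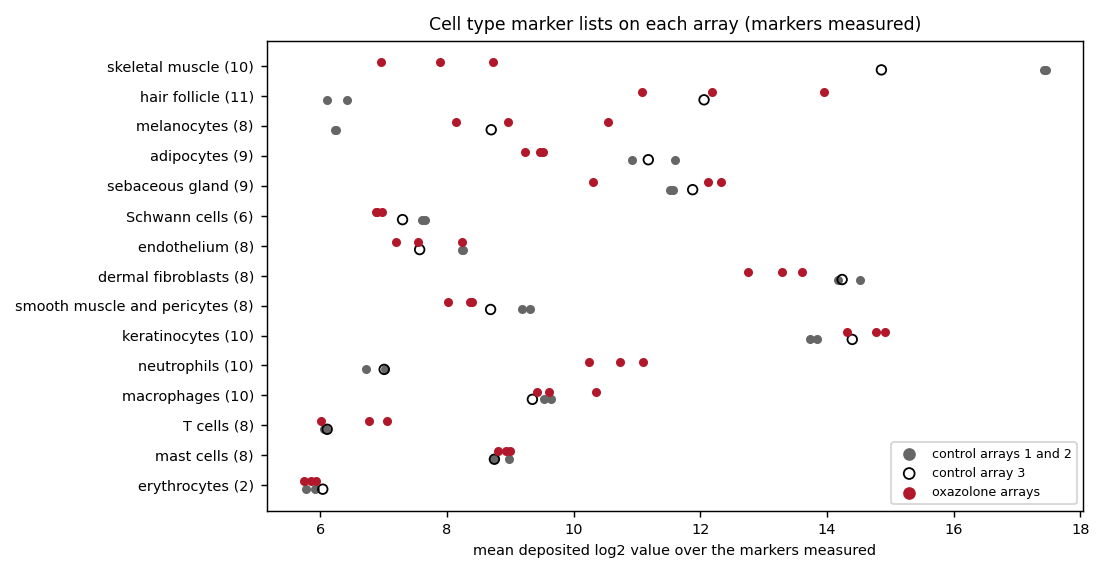
Mean deposited log2 value (x axis) of 15 cell type marker lists (y axis, number of markers measured in brackets) on control arrays 1 and 2 (grey), control array 3 (open) and the oxazolone arrays (red); each point is 1 array. Control array 3 lay with the oxazolone arrays for hair follicle markers (12.06) and between the groups for muscle markers (14.86).

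The lists with the largest called shares are shown in the plot of list shares. Polyamine, Schlafen and apolipoprotein L, tRNA synthetase and ribosome assembly genes had no member called lower. Fatty acid oxidation, nuclear receptor and glucocorticoid genes had no member called higher.

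**Figure D2:**
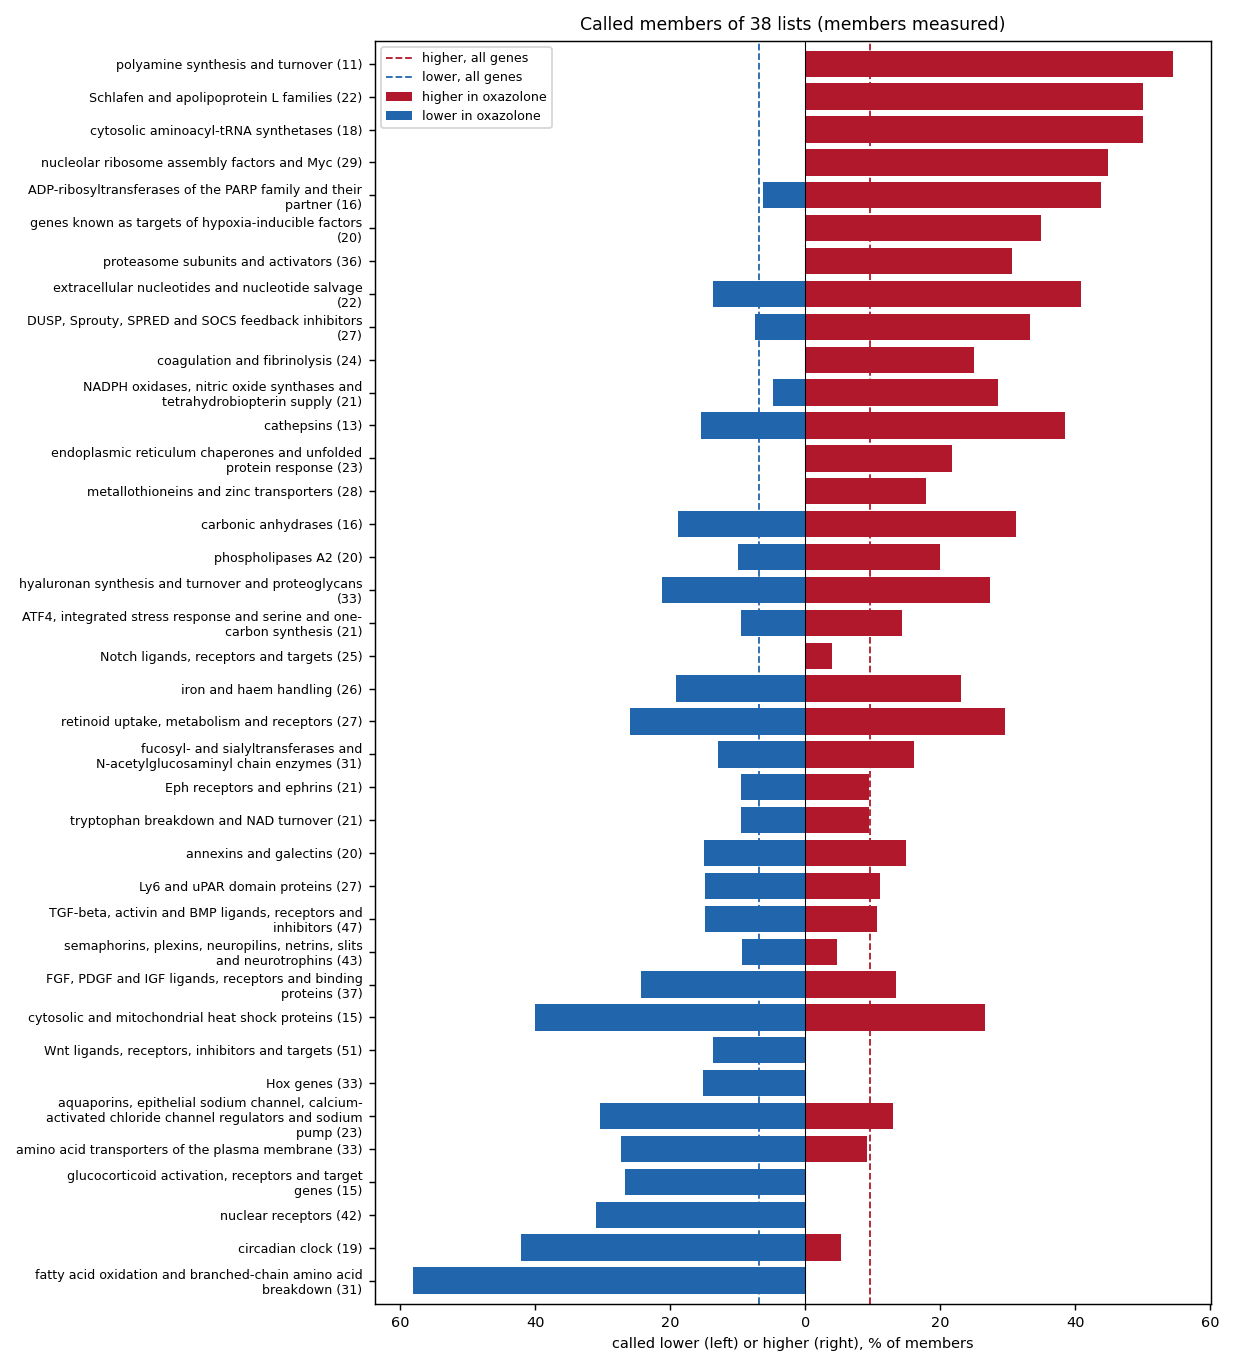
Share of measured members (x axis, %) called higher (red, right) or lower (blue, left) in oxazolone skin for 38 lists (y axis, members measured in brackets). Dashed lines mark the shares over all 30142 genes, 9.63% higher and 6.92% lower; polyamine genes reach 54.5% higher and fatty acid and branched-chain amino acid breakdown 58.1% lower.

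Before the values, the promoter sequences of several stress-related members are given, because the control of these genes has been tied to short motifs. The 250 bases before the start of each gene were searched on both strands in RefSeq promoters of the build GRCm38.p6, and 17970 measured genes had such a promoter. The endoplasmic reticulum stress element, CCAAT and CCACG set 9 bases apart, was present in 9 of 19 measured members of the unfolded protein list that had a promoter (47.4%), and in 0.15% of all measured genes with one. Of the 4 members called higher that had a promoter, 2 held it, Hspa5 and Pdia6. Capitals mark the match, which begins with CCAAT on the printed strand.
Hspa5, chr2:34772005-34772063, + strand: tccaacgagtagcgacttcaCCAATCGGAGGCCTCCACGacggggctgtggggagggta
Pdia6, chr12:17266471-17266529, + strand: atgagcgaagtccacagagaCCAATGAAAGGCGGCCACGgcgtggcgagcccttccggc
The amino acid response motif TGATGNAA, at which ATF4 is known to act, was found in 6 of 21 members of the ATF4 list (28.6%) and in 3.49% of all measured genes. Of these 6, Asns was called higher and Vldlr lower (-3.11 ± 0.71, adjusted p = 0.0289, lost without 7 single arrays at adjusted p up to 0.0972), and 4 were not called. It was also present in 2 of 11 tRNA synthetase genes with a promoter, both of which rose. In Gars and Tars it lies on the other strand, so capitals there show its reverse complement.
Asns, chr6:7693210-7693252, - strand: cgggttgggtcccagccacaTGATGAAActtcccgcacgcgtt
Gars, chr6:55037951-55037998, + strand: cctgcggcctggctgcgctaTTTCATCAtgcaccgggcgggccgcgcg
Tars, chr15:11399659-11399693, - strand: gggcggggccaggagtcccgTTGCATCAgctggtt
The core TGCNCNC of the metal response element, a loose motif, was present in 18 of 25 metallothionein and zinc transporter genes (72.0%) and in 49.9% of all measured genes. The promoter of Mt2 held 5 matches, 2 of them as reverse complements.
Mt2, chr8:94172375-94172594, + strand: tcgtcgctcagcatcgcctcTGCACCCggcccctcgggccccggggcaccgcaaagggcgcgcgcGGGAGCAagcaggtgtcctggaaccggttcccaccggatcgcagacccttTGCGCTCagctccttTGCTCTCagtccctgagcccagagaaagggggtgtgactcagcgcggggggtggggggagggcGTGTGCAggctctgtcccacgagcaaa
The clock motif CACGTG was present in 4 of 16 clock genes with a promoter (25%) and in 7.61% of all measured genes. A match describes the letters alone, and binding was not measured.

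Many genes that help make ribosomes rose. The small nucleolar RNAs (snoRNAs) guide chemical changes of ribosomal RNA, and 30 of the 62 measured snoRNA genes were higher and 0 lower, with a median difference of 0.96. Snord93 read 7.95, 7.98 and 8.44 in control skin and 10.62, 11.09 and 10.65 in oxazolone skin, a rise of 2.66 ± 0.31 (adjusted p = 0.00331). Every oxazolone array lay above every control array. Snord14e rose by 2.61 ± 0.44 (adjusted p = 0.0108), Snord42a by 1.67 ± 0.25 (adjusted p = 0.00771) and Snord14a by 1.58 ± 0.17 (adjusted p = 0.00234). The H/ACA snoRNAs Snora73a and Snora73b are near-identical copies that may share signal, and they rose by 2.14 ± 0.42 (adjusted p = 0.0177) and 2.27 ± 0.43 (adjusted p = 0.0158), and both calls were lost without control array 1 or 2, at adjusted p up to 0.0655 and 0.06, the first also without oxazolone array 3 (adjusted p = 0.0517). The snoRNA count ran from 7 without control array 2 to 35 without control array 3. Of 10 snoRNA host genes 4 rose, Snhg6 among them by 1.0 ± 0.17 (adjusted p = 0.0119), and this count ran from 1 without any 1 control array other than the third, or any oxazolone array, to 5 without control array 3.

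Nucleolar factors that assemble ribosomes showed the same direction, with 13 of 29 higher, 0 lower and a median of 0.50. Wdr43, which acts early in the small subunit, read 10.67, 10.17 and 10.89 in control skin and 11.96, 12.18 and 11.99 in oxazolone skin (1.47 ± 0.19, adjusted p = 0.00441). Its control arrays were more spread than its oxazolone arrays, and all lay below them. Ddx21, an RNA helicase of the nucleolus, rose by 1.32 ± 0.22 (adjusted p = 0.0103), and Ltv1, a small subunit export factor, by 0.72 ± 0.05 (adjusted p = 0.000482). Utp4, a member of the small subunit processome, rose by 1.46 ± 0.18 (adjusted p = 0.00399), and 5 of 10 Utp genes were called, against 1 without control array 1 or 2 or oxazolone array 2 or 3. Nop58, the core protein of box C/D snoRNAs, read 11.71, 11.40 and 13.09 in control skin and 14.10, 14.47 and 14.09 in oxazolone skin. Control array 3 lay between the groups, and the rise of 2.15 ± 0.40 (adjusted p = 0.0157) was lost without control array 1 (adjusted p = 0.0591) or oxazolone array 2 (adjusted p = 0.0525). Nucleolin (Ncl, 1.18 ± 0.22, adjusted p = 0.0159) and nucleophosmin (Npm1, 1.22 ± 0.28, adjusted p = 0.0303) were higher too, with calls lost without 2 and 7 single arrays, at adjusted p up to 0.0603 and 0.097, and after quantile renormalisation (adjusted p = 0.078 and 0.106). Myc, which drives such genes in growing cells, read 7.85, 9.0 and 9.05 against 9.16, 9.25 and 9.5 and did not pass (0.67 ± 0.32, adjusted p = 0.188). The assembly count ran from 4 without control array 1 to 20 without control array 3.

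Of 41 ribosomal protein genes, 18 were higher and 1 lower, with a median of 0.72, and 85.4% did not overlap between the groups, against 32.8% of all genes. Rps20 read 9.63, 9.33 and 9.92 in control skin and 10.57, 10.60 and 10.63 in oxazolone skin (0.97 ± 0.15, adjusted p = 0.0091). The spread within each group was smaller than the gap between them. The 1 lower gene was Rpl3l, a muscle form of Rpl3 (-3.83 ± 0.81, adjusted p = 0.0227), and its values of 10.25, 9.94 and 6.88 against 5.32, 5.05 and 5.22 placed control array 3 between the groups, as for the muscle markers. Its call was lost without 5 single arrays, at adjusted p up to 0.0772. The count of higher ribosomal protein genes was the least stable of these sets: 1 without control array 1 or oxazolone array 2, 35 without control array 3 and 6 after quantile renormalisation, where the median was 0.40.

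**Figure D3:**
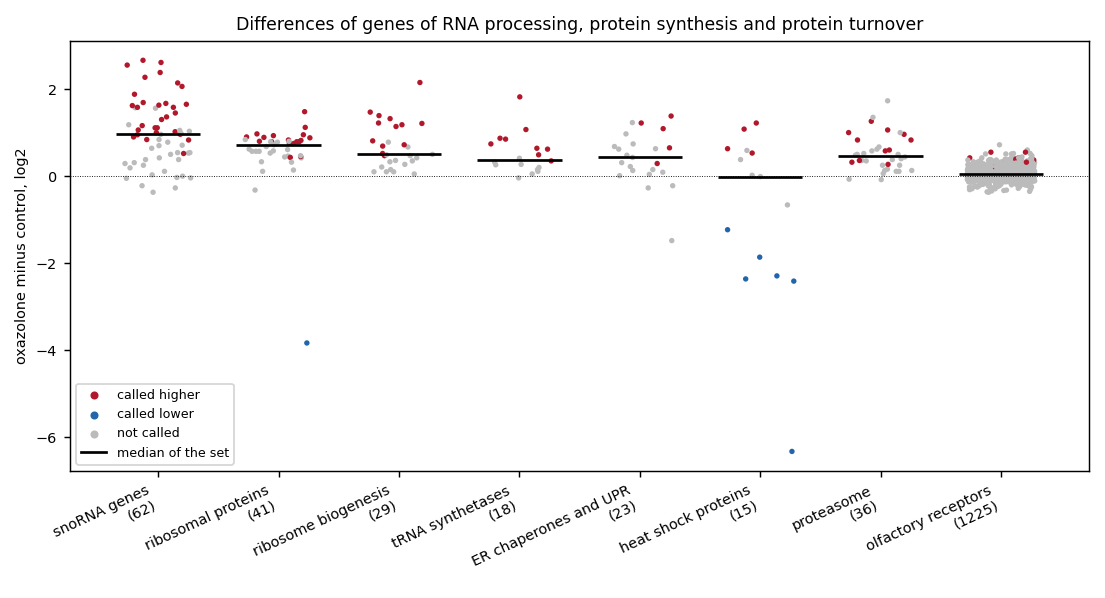
Difference of oxazolone minus control (y axis, log2) for every measured member of 8 gene sets (x axis, members in brackets); points are genes, red called higher, blue called lower, grey not called, and bars are medians. Medians lie at 0.96 for snoRNA genes, 0.72 for ribosomal proteins and 0.50 for ribosome biogenesis, against 0.06 for 1225 olfactory receptor genes, most of which skin is not known to use.

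Aminoacyl-tRNA synthetases load amino acids onto transfer RNAs, and 9 of 18 cytosolic ones rose, with 0 lower and a median of 0.38. Rars, for arginine, read 11.79, 11.63 and 12.28 in control skin and 13.75, 13.70 and 13.70 in oxazolone skin (1.82 ± 0.18, adjusted p = 0.00211). The oxazolone arrays were within 0.05 of each other and above every control array. Gars, for glycine, rose by 1.07 ± 0.17 (adjusted p = 0.0101), Nars, for asparagine, by 0.87 ± 0.12 (adjusted p = 0.00621), Tars, for threonine, by 0.85 ± 0.11 (adjusted p = 0.00509) and Lars, for leucine, by 0.74 ± 0.08 (adjusted p = 0.00253). The count was 6 without control array 2 or without any 1 oxazolone array, and 12 without control array 3, so its size but not its direction varied.

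The ATF4 programme, which matches amino acid supply to demand, gave a mixed picture, with 3 of 21 members higher and 2 lower. These shares were 14.3% and 9.52%, against 9.63% and 6.92% of all genes. Asns, the asparagine synthetase whose promoter is printed above, read 8.61, 8.42 and 8.80 in control skin and 10.21, 10.02 and 10.07 in oxazolone skin (1.49 ± 0.21, adjusted p = 0.00603). All oxazolone arrays were above all control arrays. The pseudokinase Trib3 rose by 0.48 ± 0.06 (adjusted p = 0.00455), and Psat1 of serine synthesis by 0.66 ± 0.17 (adjusted p = 0.0388), a call lost when any 1 of 8 arrays was left out (up to adjusted p = 0.123). Atf5 fell by 0.32 ± 0.06 (adjusted p = 0.0124). Atf4 itself read 9.21, 9.25 and 8.93 against 9.79, 9.58 and 9.69 without passing (0.56 ± 0.18, adjusted p = 0.0787), and the stress factor Ddit3 differed by 0.13 ± 0.11 (adjusted p = 0.439). ATF4 is known to be controlled at translation, which these arrays do not measure. Without control array 3 there were 7 higher genes, and the lower count was 1 without control array 1, among others.

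Of 33 amino acid transporters 9 were lower (27.3%, against 6.92% of all genes) and 3 higher (9.09%, against 9.63%). Without predicted, microRNA, snoRNA and sensory receptor genes, the shares over the others were 10.8% lower and 11.4% higher. Slc7a11, which exchanges cystine for glutamate, read 4.79, 4.90 and 6.33 in control skin and 11.67, 10.81 and 10.47 in oxazolone skin (5.64 ± 0.49, adjusted p = 0.00129). The proline carrier Slc6a20a rose by 2.27 ± 0.35 (adjusted p = 0.00835). Carriers of neutral and basic amino acids were among those that fell: Slc7a6 by 2.03 ± 0.15 (adjusted p = 0.000698), Slc43a1 by 1.98 ± 0.33 (adjusted p = 0.0103), Slc36a2 by 1.73 ± 0.20 (adjusted p = 0.00304), Slc1a5 by 1.53 ± 0.18 (adjusted p = 0.00303) and Slc7a2 by 1.37 ± 0.17 (adjusted p = 0.00408). Slc7a6 read 10.29, 10.39 and 10.42 against 8.22, 8.47 and 8.32, with a narrow spread in both groups. Slc38a3 and Slc38a4, at -2.34 and -2.69, lost their calls without any 1 of 8 arrays, at adjusted p up to 0.107 and 0.144. The part of muscle, fat and fibroblast RNA in the falls of carriers was not tested. The arginine carrier Slc7a1 (1.76 ± 0.52, adjusted p = 0.06) and the leucine carrier Slc7a5 (1.5 ± 0.46, adjusted p = 0.0659) did not pass, although neither overlapped between the groups. The count of higher carriers was 7 without control array 3.

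Some genes of protein folding and disposal rose. Of 23 endoplasmic reticulum chaperone and unfolded protein genes 5 were higher and 0 lower. Hspa5, the main chaperone of that compartment, read 12.32, 12.08 and 12.31 in control skin and 13.57, 13.09 and 14.18 in oxazolone skin (1.38 ± 0.29, adjusted p = 0.0233). The groups did not overlap, and the oxazolone arrays were spread over more than 1 log2 unit. Edem1, which marks misfolded glycoproteins for removal, rose by 1.22 ± 0.24 (adjusted p = 0.0172) and the disulfide isomerase Pdia6 by 1.09 ± 0.22 (adjusted p = 0.0198). All 5 calls were lost without control array 1 and in a fit of the 6 compared arrays alone, and 9 genes were higher without control array 3. The call of Hspa5 was lost without 4 single arrays (adjusted p up to 0.0807), that of Edem1 without control array 1 or 2 (up to 0.0645) and that of Pdia6 without control array 1 or oxazolone array 1 or 3 (up to 0.0668). Xbp1, measured as its whole transcript and not its spliced form, differed by 0.13 ± 0.12 (adjusted p = 0.477). After quantile renormalisation 4 members were higher and 2 lower.

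Cytosolic and mitochondrial heat shock genes split, with 4 of 15 higher and 6 lower. The mitochondrial chaperonin Hspd1 rose by 0.63 ± 0.10 (adjusted p = 0.0102), but by 0.34 (adjusted p = 0.102) after quantile renormalisation. Hsp90aa1 (1.22 ± 0.31, adjusted p = 0.0376), Hspa4l (1.08 ± 0.21, adjusted p = 0.0178) and Hspa8 (0.53 ± 0.12, adjusted p = 0.0271) were higher too but lost their calls without 7, 2 and 5 single arrays, at adjusted p up to 0.104, 0.0657 and 0.08, and Hspa8 lies near the top of the scale at 18.81 to 19.60. The inducible Hspa1a read 7.50, 8.58 and 8.58 against 8.05, 7.58 and 9.09 and did not differ (0.02 ± 0.52, adjusted p = 0.992). Small heat shock protein genes were among the 6 that fell: Hspb7, found mainly in heart and skeletal muscle, by 6.32 ± 0.69 (adjusted p = 0.00253), Hspb8 by 2.36 ± 0.33 (adjusted p = 0.00595), Hspb6 by 1.86 ± 0.23 (adjusted p = 0.00398) and Hspb1 by 1.23 ± 0.13 (adjusted p = 0.00256). Hspb7 read 12.97, 13.16 and 10.43 in control skin and 5.80, 5.72 and 6.07 in oxazolone skin, so control array 3 was the lowest control, as for the muscle marker mean (14.86 on that array). Hsf2, a heat shock transcription factor, read 11.44, 10.90 and 10.74 against 8.71, 8.68 and 8.47 (-2.41 ± 0.17, adjusted p = 0.000695). The part of muscle RNA in these falls was not tested. The higher count was 1 without control array 1 and 2 after quantile renormalisation, where Hsp90aa1 (adjusted p = 0.0738) was also lost.

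Of 36 proteasome genes 11 were higher and 0 lower, with a median of 0.46 (0.18 after quantile renormalisation), and 28 (77.8%) did not overlap between groups, against 32.8% of all genes. The core subunit Psma7 read 8.90 to 9.24 in control skin and 9.86 to 10.30 in oxazolone skin, a rise of 1.0 ± 0.15 (adjusted p = 0.00822) with no overlap. Psma2 rose by 1.06 ± 0.19 (adjusted p = 0.0135), and Psmd1 of the regulatory particle was higher by 0.32 ± 0.05 (adjusted p = 0.0104) but not after quantile renormalisation (-0.02, adjusted p = 0.868). The immunoproteasome subunits Psmb8 (1.35 ± 0.40, adjusted p = 0.0624), Psmb9 (1.0 ± 0.29, adjusted p = 0.0583) and Psmb10 (1.73 ± 0.60, adjusted p = 0.0926) did not pass: Psmb10 read 7.16, 7.15 and 7.04 against 8.34, 7.78 and 10.41, and the oxazolone arrays differed widely. The count was 3 without control array 2, 15 without urushiol array 1 and 7 after quantile renormalisation.

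Polyamines are small basic molecules needed for growth and made from arginine through ornithine, and 6 of 11 genes of their synthesis and turnover rose with 0 lower. Odc1, the ornithine decarboxylase that sets the rate, read 11.32, 11.33 and 12.12 in control skin and 15.15, 15.20 and 15.16 in oxazolone skin (3.58 ± 0.25, adjusted p = 0.000668). The oxazolone arrays were nearly equal, and control array 3 was the highest control. Arginase 1 (Arg1) supplies ornithine and rose by 3.63 ± 0.59 (adjusted p = 0.0101), from 8.15, 8.24 and 8.14 to 12.87, 10.46 and 12.10. Sat1, which acetylates polyamines for export, rose by 2.45 ± 0.23 (adjusted p = 0.00153) and the spermine oxidase Smox by 1.49 ± 0.13 (adjusted p = 0.00138), so both synthesis and breakdown genes were higher. Arg2 (2.55 ± 0.58, adjusted p = 0.0285) and the spermidine synthase Srm (0.88 ± 0.22, adjusted p = 0.0349) were higher with calls lost without 7 and 8 single arrays, at adjusted p up to 0.0904 and 0.101. The count was 4 without control array 1 or 2, any 1 oxazolone array or urushiol arrays 2 or 3.

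Nucleotide handling showed 9 of 22 genes higher and 3 lower. Samhd1, which breaks down deoxynucleotides, read 11.32, 11.66 and 11.54 in control skin and 16.01, 15.00 and 16.81 in oxazolone skin (4.43 ± 0.40, adjusted p = 0.00141). Entpd1 (CD39), which removes phosphates from extracellular ATP, rose by 1.99 ± 0.29 (adjusted p = 0.0067). The salvage enzymes Upp1 (1.92 ± 0.24, adjusted p = 0.004), Pnp (1.75 ± 0.30, adjusted p = 0.0117) and Hprt (1.48 ± 0.18, adjusted p = 0.00383) rose. Adenosine deaminase (Ada) rose by 1.46 ± 0.26 (adjusted p = 0.0133), a call lost without 2 single arrays, at adjusted p up to 0.0527. Hprt is often used as a reference gene, and here it read 12.56, 12.58 and 13.14 in control skin against 14.30, 14.19 and 14.23. Its groups did not overlap. The count of higher genes was 5 without control array 1, and that of lower genes was 0 without control array 2 or oxazolone array 1.

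Nicotinamide and tryptophan genes gave 2 of 21 higher and 2 lower, a share of 9.52% each way. Over all genes 9.63% were higher and 6.92% lower, so these counts lie near the background. Ido1, which starts tryptophan breakdown in inflamed tissue, read 4.59, 4.47 and 4.55 against 5.36, 4.92 and 7.09 without passing (1.25 ± 0.50, adjusted p = 0.124). The oxazolone arrays were all above the controls, and array 3 stood well above arrays 1 and 2. Nampt, of NAD salvage, did not pass either (1.20 ± 0.42, adjusted p = 0.0923). No gene was higher without control array 1 or 2 or oxazolone array 1, and none lower without control array 1 or 2 or oxazolone array 2 or 3.

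Oxidase and nitric oxide genes gave 6 of 21 higher and 1 lower. The dual oxidase Duox1 releases hydrogen peroxide at epithelial surfaces and read 6.47, 6.33 and 6.31 in control skin and 7.83, 7.34 and 8.19 in oxazolone skin (1.42 ± 0.22, adjusted p = 0.00802). Its maturation factor Duoxa1 rose by 1.64 ± 0.27 (adjusted p = 0.01), and both lay apart from the controls on every array. Gch1, which makes the cofactor tetrahydrobiopterin, rose by 1.62 ± 0.28 (adjusted p = 0.0115). The inducible synthase Nos2 read 4.80, 4.80 and 4.74 against 5.07, 4.80 and 5.61 and did not pass (0.38 ± 0.18, adjusted p = 0.192), and its values were low on all arrays. The neuronal synthase Nos1, also present in muscle, was lower (-1.67 ± 0.45, adjusted p = 0.0452), and the call was lost without any 1 of 8 arrays, at adjusted p up to 0.132. After median centring 3 members were higher.

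Metallothioneins bind zinc and copper. Mt2 read 17.19, 17.42 and 18.82 in control skin and 19.25, 19.55 and 19.40 in oxazolone skin (1.59 ± 0.42, adjusted p = 0.0445). Its oxazolone values lie close to the ceiling of 19.93, and the call was lost without any 1 of 8 arrays, at adjusted p up to 0.141. Mt1 (0.95 ± 0.31, adjusted p = 0.0812) and the epithelial Mt4 (1.37 ± 0.69, adjusted p = 0.208) did not pass. Of the zinc carriers, Slc30a7, which loads the secretory pathway, rose by 1.11 ± 0.16 (adjusted p = 0.00661), and Slc39a14, an importer, was higher by 1.64 ± 0.45 (adjusted p = 0.0481), lost without 7 single arrays at adjusted p up to 0.144. In all 5 of 28 genes were higher and 0 lower, and 11 were higher without control array 3 but 1 without control array 1 or 2, oxazolone array 2 or 3 or urushiol array 3.

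Of 26 iron and haem genes 6 were higher and 5 lower. Lipocalin 2 (Lcn2), which withholds iron from bacteria, was higher by 2.24 ± 0.44 (adjusted p = 0.0182), a call lost without control array 1 or 2 (adjusted p up to 0.0659). The reductase Steap1 rose by 1.66 ± 0.28 (adjusted p = 0.011) while its relative Steap3 fell by 1.0 ± 0.17 (adjusted p = 0.0122). Transferrin (Trf), the iron carrier, read 13.25, 13.84 and 13.16 in control skin and 11.56, 11.58 and 10.72 in oxazolone skin (-2.13 ± 0.30, adjusted p = 0.00607). Every oxazolone array lay below every control array. Bach1, a haem-regulated repressor, rose by 1.34 ± 0.12 (adjusted p = 0.00156), and haem oxygenase Hmox1 was higher by 0.84 ± 0.20 (adjusted p = 0.0309), lost without 5 single arrays at adjusted p up to 0.0936. The transferrin receptor Tfrc did not differ (-0.08 ± 0.26, adjusted p = 0.852). The haem carrier Slc48a1 fell by 0.58 ± 0.10 (adjusted p = 0.0111). With control array 1 or 2 left out 3 were higher, and the lower count was 3 without control array 2 or oxazolone array 2 and 8 after quantile renormalisation.

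Retinoid genes moved in both directions, with 8 of 27 higher, 7 lower and a median of -0.01. Vitamin A is stored as retinyl ester, oxidised through retinal to retinoic acid, and carried to nuclear receptors by binding proteins. Lrat, which makes the ester, read 5.35, 5.80 and 6.71 in control skin and 10.56, 11.29 and 10.33 in oxazolone skin (4.77 ± 0.37, adjusted p = 0.000929). The binding protein Crabp2 rose by 3.73 ± 0.45 (adjusted p = 0.0036), and Fabp5, which also carries fatty acids, rose by 4.82 ± 0.45 (adjusted p = 0.00159). Dhrs9, which oxidises retinol, rose by 3.45 ± 0.57 (adjusted p = 0.0103). Aldh1a3, which makes retinoic acid, was higher by 3.52 ± 0.68 (adjusted p = 0.017), lost without 2 single arrays at adjusted p up to 0.063. Against these, Aldh1a1, a second enzyme of the same step, read 13.60, 13.66 and 11.01 in control skin and 7.86, 7.28 and 7.81 in oxazolone skin (-5.11 ± 0.70, adjusted p = 0.00565). Control array 3 was its lowest control, as for the muscle markers, and the part of muscle RNA in its fall was not tested. The alcohol dehydrogenases Adh1 (-2.55 ± 0.24, adjusted p = 0.00157) and Adh7 (-2.26 ± 0.37, adjusted p = 0.0101), the retinal reductase Dhrs3 (-1.29 ± 0.16, adjusted p = 0.00411) and the receptor Rxra (-0.91 ± 0.12, adjusted p = 0.00465) fell. Lrat, Crabp2, Aldh1a1 and Adh1 did not overlap between groups. The retinol importer Stra6 (0.28 ± 0.13, adjusted p = 0.178) and the retinoic acid-degrading Cyp26b1 (0.31 ± 0.15, adjusted p = 0.185) did not pass. The count of higher genes was 4 without control array 1.

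**Figure D4:**
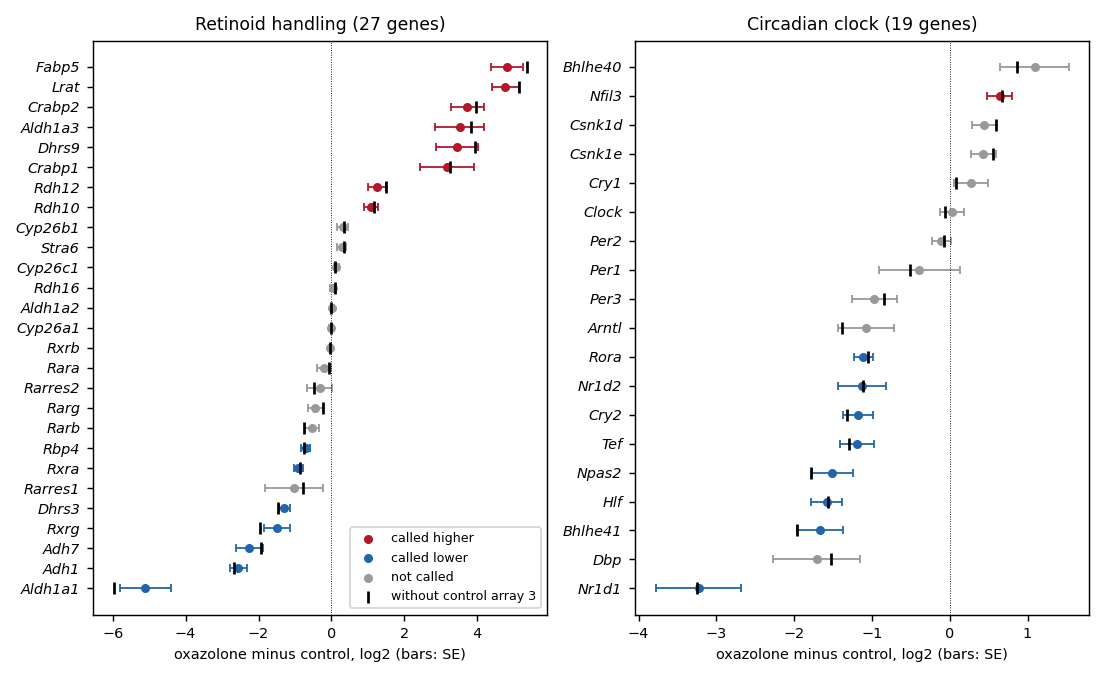
Difference of oxazolone minus control (x axis, log2, bars are standard errors) for 27 retinoid genes (left) and 19 clock genes (right); red called higher, blue called lower, grey not called, and black ticks the difference without control array 3. Retinoid genes spread from -5.11 (Aldh1a1) to 4.82 (Fabp5), and clock genes from -3.23 (Nr1d1) upwards with a median of -1.08.

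Among the water and salt transport genes the largest difference was that of the glycerol and water channel Aqp3, which read 10.24, 10.30 and 11.76 in control skin and 16.80, 16.56 and 17.10 in oxazolone skin (6.05 ± 0.40, adjusted p = 0.000558). The gap between the groups was far wider than the spread within either. Sodium channel subunits differed: Scnn1g rose by 2.93 ± 0.51 (adjusted p = 0.0125), Scnn1b was higher by 2.2 ± 0.42 (adjusted p = 0.0163, lost without control array 1 or 2 at adjusted p up to 0.0615) and Scnn1a did not pass (0.61 ± 0.27, adjusted p = 0.16). The chloride channel regulators Clca3a1 and Clca3a2 were lower by -3.22 ± 0.57 (adjusted p = 0.0134) and -3.62 ± 0.68 (adjusted p = 0.0157), the first call lost without control array 1 (adjusted p = 0.0501) and the second without 4 single arrays (highest adjusted p = 0.0561). Clca3a2 read 15.97, 15.81 and 16.23 against 12.45, 12.73 and 11.97, well apart on the 6 arrays. Near-identical copies of the Clca3a genes may share signal. Aqp4, a muscle and brain water channel, fell by 1.09 ± 0.18 (adjusted p = 0.00986). Of 23 genes 3 were higher and 7 lower, and the lower count was 1 without control array 1.

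Carbonic anhydrases interconvert carbon dioxide and bicarbonate, and 5 of 16 were higher and 3 lower. Car12 rose by 2.79 ± 0.43 (adjusted p = 0.00831) and Car2 by 1.89 ± 0.30 (adjusted p = 0.00913), the latter at 9.15 on all 3 oxazolone arrays against 7.24, 7.41 and 7.12. Car3, abundant in muscle and fat, read 18.54, 18.66 and 17.78 in control skin and 14.76, 14.70 and 14.82 in oxazolone skin (-3.57 ± 0.26, adjusted p = 0.000698). Adipocyte marker means were 10.93, 11.60 and 11.18 in control skin and 9.24, 9.51 and 9.47 in oxazolone skin, and their part in this fall was not tested. The higher count was 3 without control array 1, and the lower count was 1 without control array 1 or 2 or any 1 oxazolone array.

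Of 31 genes that break down fatty acids and branched-chain amino acids, 18 were lower and 0 higher, with a median of -0.76. Cpt1b, the muscle form of the enzyme that admits fatty acids to mitochondria, read 11.11, 11.54 and 8.00 in control skin and 6.20, 6.31 and 6.15 in oxazolone skin (-4.00 ± 0.84, adjusted p = 0.022), and its call was lost without 5 single arrays, at adjusted p up to 0.075. Control array 3 was low, as for muscle markers. Acadm, of medium-chain oxidation, fell by 2.01 ± 0.30 (adjusted p = 0.0078). Of the genes for leucine breakdown, Ivd fell by 1.47 ± 0.25 (adjusted p = 0.0117), Mccc2 by 1.18 ± 0.20 (adjusted p = 0.0114) and Mccc1 by 1.14 ± 0.15 (adjusted p = 0.00486). Mccc1 read 9.02, 8.94 and 8.76 against 7.48, 7.98 and 7.83. The propionate enzyme Pccb fell by 1.37 ± 0.23 (adjusted p = 0.0115) and the transaminase Bcat2 by 0.71 ± 0.12 (adjusted p = 0.0116). Muscle marker means on the same arrays were 17.46, 17.42 and 14.86 against 7.89, 6.96 and 8.73, all 10 markers were lower, and the part of muscle in these falls was not tested. The count was 7 without control array 2 and 25 without control array 3.

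Genes known as targets of hypoxia-inducible factors included 7 of 20 higher and 0 lower. Hif1a, the oxygen-sensitive subunit itself, read 12.89, 12.66 and 13.27 in control skin and 15.54, 15.14 and 15.40 in oxazolone skin (2.42 ± 0.19, adjusted p = 0.000939). Its groups were clearly apart. The hormone Stc1 (2.49 ± 0.50, adjusted p = 0.0195) and Ndrg1 (2.08 ± 0.45, adjusted p = 0.0251) were higher with calls lost without control array 1 or 2, at adjusted p up to 0.0693 and 0.0791, and for Ndrg1 also without oxazolone array 1 (adjusted p = 0.066). The list held 1 call without control array 1 or 2.

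**Figure D5:**
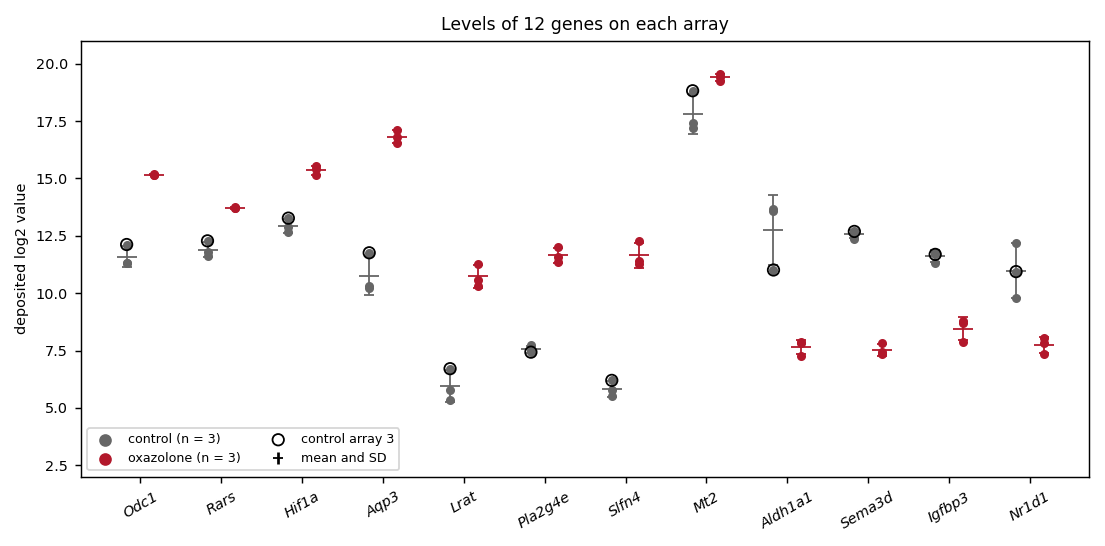
Deposited log2 value (y axis) of 12 genes (x axis) on each control (grey) and oxazolone (red) array, with the mean and SD of 3 arrays; control array 3 is ringed. Odc1, Rars, Hif1a, Aqp3, Lrat, Pla2g4e and Slfn4 lie higher and Aldh1a1, Sema3d, Igfbp3 and Nr1d1 lower on all 3 oxazolone arrays, and Mt2 runs close to the 19.93 ceiling.

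Of 33 hyaluronan and proteoglycan genes 9 were higher and 7 lower. Tnfaip6, which links hyaluronan in inflamed tissue, read 7.99, 10.08 and 8.35 in control skin and 12.34, 13.98 and 12.58 in oxazolone skin (4.16 ± 0.62, adjusted p = 0.00746). Control array 2 was the highest control, below every oxazolone array. The hyaluronan receptor Cd44 rose by 2.95 ± 0.42 (adjusted p = 0.00653), serglycin (Srgn), a granule proteoglycan of blood cells, by 2.68 ± 0.17 (adjusted p = 0.000455), and syndecan 1 (Sdc1) of epithelia by 1.36 ± 0.20 (adjusted p = 0.00663). The synthases Has1 (1.27 ± 0.29, adjusted p = 0.0293), Has2 (1.29 ± 0.33, adjusted p = 0.0394) and Has3 (0.98 ± 0.24, adjusted p = 0.0338) were higher with calls lost without 5, 8 and 6 single arrays, at adjusted p up to 0.0948, 0.095 and 0.105. The hyaluronidase Cemip2 rose by 1.01 ± 0.10 (adjusted p = 0.0016). Of 11 small leucine-rich proteoglycans in the list, a subset counted after the values were seen, 6 were lower and 0 higher, among them Ogn (-2.48 ± 0.43, adjusted p = 0.0118), Prelp (-2.01 ± 0.33, adjusted p = 0.0101), Podn (-1.94 ± 0.21, adjusted p = 0.00241) and Fmod (-0.82 ± 0.09, adjusted p = 0.00305). Podn read 9.02, 9.32 and 8.51 against 7.06, 6.92 and 7.04. Neutrophil marker means were 6.72, 7.02 and 7.01 in control skin and 11.10, 10.73 and 10.25 in oxazolone skin, and those of dermal fibroblasts 14.52, 14.18 and 14.24 against 13.61, 12.76 and 13.29. Their part in the matrix results was not tested. With control array 1, oxazolone array 2 or urushiol array 3 left out the higher count was 5, and with control array 1 left out the lower count was 4.

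Coagulation and fibrinolysis gave 6 of 24 higher and 0 lower. The urokinase receptor Plaur read 7.15, 6.83 and 7.0 in control skin and 10.38, 10.29 and 9.62 in oxazolone skin (3.10 ± 0.20, adjusted p = 0.000455), and urokinase itself (Plau) rose by 1.28 ± 0.20 (adjusted p = 0.00819). The inhibitor Tfpi2 rose by 2.75 ± 0.26 (adjusted p = 0.00155) and the protein C receptor Procr by 1.69 ± 0.25 (adjusted p = 0.00693). Tissue factor (F3) read 12.29, 12.14 and 12.21 against 12.90, 12.26 and 13.18 and did not pass (0.57 ± 0.40, adjusted p = 0.355). Receptor, protease and inhibitor thus rose side by side, and the clotting initiator overlapped between groups.

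Lysosomal proteases and lipases also differed by member. Of 13 cathepsins 5 were higher and 2 lower. Cathepsin C (Ctsc), which activates granule proteases, rose by 2.18 ± 0.30 (adjusted p = 0.00528), cathepsin L (Ctsl) by 1.78 ± 0.22 (adjusted p = 0.00411) and cathepsin B (Ctsb) by 0.62 ± 0.10 (adjusted p = 0.00982), the last not after quantile renormalisation (0.13, adjusted p = 0.552). Of 20 phospholipases A2 4 were higher and 2 lower. Pla2g4e, of the cytosolic group, read 7.48, 7.73 and 7.43 in control skin and 11.36, 11.56 and 12.02 in oxazolone skin (4.10 ± 0.28, adjusted p = 0.000569), and its neighbour in family Pla2g4d rose by 2.84 ± 0.40 (adjusted p = 0.00598). Pla2g7, which inactivates platelet-activating factor, rose by 2.2 ± 0.28 (adjusted p = 0.00414). The adipocyte lipase Plaat3 fell by 2.46 ± 0.35 (adjusted p = 0.00613), beside the adipocyte means given above. Both Pla2g4 genes were apart on all 6 arrays. The lower counts of these lists fell to 0 cathepsins without control array 1 or 2 and to 1 phospholipase without control array 2, oxazolone array 1 or 3 or urushiol array 2.

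Annexins and galectins gave 3 of 20 higher and 3 lower, a share of 15.0% each way. Annexin A1 (Anxa1), a resolving mediator, rose by 1.51 ± 0.26 (adjusted p = 0.0121; 0.84, adjusted p = 0.0748, after quantile renormalisation) and the keratinocyte galectin Lgals7 by 1.80 ± 0.30 (adjusted p = 0.0114). Galectin 9 (Lgals9) was higher by 2.27 ± 0.59 (adjusted p = 0.0416), lost without any 1 of 8 arrays at adjusted p up to 0.115. The lower genes were Anxa6 (-1.96 ± 0.49, adjusted p = 0.0372), Anxa8 (-0.62 ± 0.15, adjusted p = 0.032) and Lgals4 (-0.22 ± 0.06, adjusted p = 0.0414), with calls lost without 8, 7 and 8 single arrays, at adjusted p up to 0.12, 0.0945 and 0.111. None was lower without control array 2, any 1 oxazolone array or urushiol array 3. Glycan-capping enzymes gave 5 of 31 higher (16.1%, against 9.63% of all genes) and 4 lower (12.9%, against 6.92%). The sialyltransferase St3gal4 rose by 0.73 ± 0.12 (adjusted p = 0.0108) while St3gal3 (-2.03 ± 0.50, adjusted p = 0.0351) and St3gal6 (-2.2 ± 0.52, adjusted p = 0.031) were lower with calls lost without 8 and 7 single arrays, at adjusted p up to 0.108 and 0.103. St3gal6 read 10.30, 10.01 and 8.12 against 7.28, 7.31 and 7.24, with control array 3 between. Without control array 1 or oxazolone array 3 the glycan counts were 2 higher and 1 lower, and without control array 3 they were 8 and 6. Of the annexins and galectins, 6 were higher without oxazolone array 2 and 1 after quantile renormalisation.

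Ly6 and uPAR domain proteins gave 3 of 27 higher (11.1%, against 9.63% of all genes) and 4 lower (14.8%, against 6.92%). Lypd3, a surface protein of the upper epidermis, rose by 2.70 ± 0.28 (adjusted p = 0.00229) and Ly6d, of stratified epithelia, by 2.23 ± 0.26 (adjusted p = 0.00314), from 15.24, 14.93 and 15.57 to 17.63, 17.24 and 17.57. The complement inhibitor Cd59a fell by 2.24 ± 0.38 (adjusted p = 0.0118). All 3 had groups that did not overlap. The count was 5 higher without control array 3, and 2 lower without control array 1 and without 5 other arrays in turn.

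ADP-ribosyltransferases of the PARP family gave 7 of 16 higher and 1 lower. Parp14, known as an interferon-responsive enzyme, read 8.34, 8.83 and 8.34 in control skin and 12.58, 11.47 and 13.80 in oxazolone skin (4.11 ± 0.52, adjusted p = 0.00422). Oxazolone array 3 was the highest and array 2 the lowest of the group. Parp9 (3.66 ± 0.45, adjusted p = 0.00399) and its partner Dtx3l (3.18 ± 0.50, adjusted p = 0.00919) rose, with the same order of arrays: Dtx3l read 7.71, 7.98 and 7.78 against 10.77, 9.98 and 12.25. Tiparp, a target of the aryl hydrocarbon receptor, rose by 2.09 ± 0.31 (adjusted p = 0.00736).

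Schlafen and apolipoprotein L genes gave 11 of 22 higher and 0 lower. Slfn4, of myeloid cells, read 5.78, 5.52 and 6.20 in control skin and 12.27, 11.26 and 11.42 in oxazolone skin (5.82 ± 0.28, adjusted p = 0.000196). Slfn2 rose by 4.44 ± 0.35 (adjusted p = 0.000953), Slfn1 by 3.12 ± 0.29 (adjusted p = 0.00156), Slfn9 by 2.76 ± 0.45 (adjusted p = 0.0103) and Slfn3 by 1.81 ± 0.27 (adjusted p = 0.00708). These clustered genes are similar in sequence, and their probes may share signal. Apol9b was higher by 1.88 ± 0.40 (adjusted p = 0.0239), lost without any 1 of control arrays 1 and 2 and oxazolone array 1, at adjusted p up to 0.0822. The count was 6 without control array 1. Neutrophil marker means, 6.72 to 7.02 in control skin against 10.25 to 11.10, were higher on the same arrays, and their part was not tested.

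Signalling genes moved by pathway member. Of 27 inhibitors that feed back on MAP kinase and cytokine receptors 9 were higher and 2 lower. The phosphatase Dusp5 read 6.87, 7.50 and 7.24 in control skin and 9.39, 9.17 and 9.78 in oxazolone skin (2.24 ± 0.21, adjusted p = 0.0016). Dusp14 rose by 2.04 ± 0.26 (adjusted p = 0.00419), Spred1 by 1.21 ± 0.18 (adjusted p = 0.00671) and Socs5 by 0.87 ± 0.11 (adjusted p = 0.00481), and Socs7 fell by 1.13 ± 0.18 (adjusted p = 0.00868). Socs3 was higher by 0.86 ± 0.17 (adjusted p = 0.0187), lost without 2 single arrays at adjusted p up to 0.0645, while the quickly induced Dusp1 did not differ (0.13 ± 0.51, adjusted p = 0.885). The count of higher genes was 4 without oxazolone array 3.

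Among 47 TGF-beta, activin and BMP genes 5 were higher (10.6%, against 9.63% of all genes) and 7 lower (14.9%, against 6.92%). The activin subunit genes Inhba (7.10, 6.58 and 7.12 against 9.35, 8.69 and 9.08, a rise of 2.11 ± 0.20, adjusted p = 0.00157) and Inhbb (1.23 ± 0.18, adjusted p = 0.00661) rose. Myostatin (Mstn), a hormone of muscle, fell by 9.23 ± 1.20 (adjusted p = 0.0045), from 15.57, 15.74 and 11.57 to 5.08, 5.10 and 5.00, with control array 3 the lowest control, as for the muscle markers. The co-receptor Tgfbr3 fell by 1.18 ± 0.20 (adjusted p = 0.0109). Tgfb1 (0.89 ± 0.23, adjusted p = 0.0394) and Tgfb2 (-1.40 ± 0.38, adjusted p = 0.0463) were called in opposite directions, and these calls were lost without 7 and 8 single arrays, at adjusted p up to 0.117 and 0.129. The higher count was 2 without control array 2 and 8 without control array 3, and the lower count was 3 without control array 2 or any 1 oxazolone array.

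Of 37 FGF, PDGF and IGF genes 5 were higher and 9 lower. Of 7 binding proteins that hold insulin-like growth factors outside cells, a subset counted after the values were seen, 3 were lower and 0 higher. Igfbp3 read 11.32, 11.81 and 11.69 in control skin and 8.78, 7.87 and 8.70 in oxazolone skin (-3.16 ± 0.25, adjusted p = 0.000939), and Igfbp6 fell by 2.21 ± 0.25 (adjusted p = 0.0029). Control array 3 lay between the other controls for Igfbp3, at 11.69. Igfbp5 was lower by -2.95 ± 0.53 (adjusted p = 0.0137), lost without 2 single arrays at adjusted p up to 0.0506. Fgf18 of the hair cycle fell by 1.05 ± 0.10 (adjusted p = 0.00157). Hepatocyte growth factor (Hgf) rose by 1.58 ± 0.22 (adjusted p = 0.00543). Fgf23, a bone hormone, read 4.22, 4.55 and 4.41 against 6.13, 7.37 and 6.36 (2.23 ± 0.36, adjusted p = 0.00953). The higher count was 2 without control array 1 or 2, oxazolone array 1 or 2 or urushiol array 3, and the lower count was 3 without control array 2 or oxazolone array 3.

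Wnt genes gave 0 of 51 higher and 7 lower. Lgr6, which marks epidermal stem cells, read 8.54, 8.68 and 9.23 in control skin and 6.65, 7.01 and 6.90 in oxazolone skin (-1.96 ± 0.18, adjusted p = 0.00157). The ligand Wnt3 fell by 0.81 ± 0.14 (adjusted p = 0.0134) and the inhibitor Dkk2 by 0.86 ± 0.12 (adjusted p = 0.00584). Wnt5a did not pass (0.98 ± 0.33, adjusted p = 0.0813). Without control array 3 there were 6 higher genes, and the lower count was 4 without oxazolone array 2 or 3. Notch genes gave 1 of 25 higher, Numb (0.81 ± 0.19, adjusted p = 0.0331, lost without 6 single arrays at adjusted p up to 0.108), and Notch1 did not differ (-0.11 ± 0.41, adjusted p = 0.883).

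Guidance genes of axons and vessels gave 2 of 43 higher (4.65%, against 9.63% of all genes) and 4 lower (9.3%, against 6.92%). Sema3d, a secreted semaphorin, read 12.68, 12.37 and 12.69 in control skin and 7.81, 7.43 and 7.33 in oxazolone skin (-5.06 ± 0.21, adjusted p = 0.000154). Values within each group differed by less than 0.5. Sema3c fell by 2.10 ± 0.30 (adjusted p = 0.00661), and the membrane-bound Sema7a rose by 1.23 ± 0.14 (adjusted p = 0.00288). Sema3a, which repels sensory fibres, was higher by 1.41 ± 0.27 (adjusted p = 0.0163), lost without 4 single arrays at adjusted p up to 0.0595. Schwann cell marker means were 7.65, 7.60 and 7.30 against 6.88, 6.89 and 6.98. Eph receptors and ephrins gave 2 of 21 higher and 2 lower, near the background, and these 4 calls were each lost on leaving out arrays, to 0 higher without control array 1 or 2 or oxazolone array 2 or 3. Without control array 3, 6 were higher, and 5 of the guidance genes.

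The circadian clock list had 8 of 19 members lower and 1 higher, with a median of -1.08. The lower count ran from 6 to 9 with an array left out. Nr1d1 (REV-ERB alpha), a repressor of the clock, read 9.81, 12.19 and 10.94 in control skin and 8.04, 7.36 and 7.84 in oxazolone skin (-3.23 ± 0.55, adjusted p = 0.0112). The control arrays spread over more than 2 log2 units, and all lay above the oxazolone arrays. Hlf fell by 1.58 ± 0.20 (adjusted p = 0.00414), Npas2 by 1.51 ± 0.26 (adjusted p = 0.0114), Cry2 by 1.18 ± 0.19 (adjusted p = 0.00972) and Rora by 1.11 ± 0.12 (adjusted p = 0.00234). Dbp (-1.71 ± 0.56, adjusted p = 0.0786), Per1 (-0.39 ± 0.52, adjusted p = 0.639), Per2 (-0.11 ± 0.12, adjusted p = 0.587), Arntl (-1.08 ± 0.36, adjusted p = 0.0825) and Clock (0.03 ± 0.15, adjusted p = 0.9) did not pass. Per1 read 7.20, 9.38 and 7.92 in control skin against 7.43, 7.88 and 8.03. The hour of sampling is not given, so time of day and oxazolone cannot be told apart for these genes.

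Glucocorticoid genes gave 0 of 15 higher and 4 lower. The receptor Nr3c1 read 11.61, 11.36 and 11.10 in control skin and 10.28, 10.34 and 10.45 in oxazolone skin (-1.0 ± 0.12, adjusted p = 0.00373). Zbtb16, a hormone-induced gene, fell by 2.87 ± 0.49 (adjusted p = 0.012), from 9.78, 10.62 and 8.67 to 6.61, 6.52 and 7.34. Klf9 was lower by -2.36 ± 0.43 (adjusted p = 0.0143), lost without oxazolone array 1 (adjusted p = 0.0518). Fkbp5, another target, did not differ (-0.02 ± 0.26, adjusted p = 0.967), and Tsc22d3 did not pass (-0.91 ± 0.31, adjusted p = 0.0843). The count was 2 without oxazolone array 1.

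Of 42 nuclear receptors 13 were lower and 0 higher, among them those of the clock, glucocorticoid and retinoid lists above. Besides these, the oestrogen receptor Esr1 read 8.31, 8.08 and 7.49 in control skin and 6.58, 6.29 and 6.31 in oxazolone skin (-1.57 ± 0.20, adjusted p = 0.0046), and Ppara fell by 0.59 ± 0.07 (adjusted p = 0.00284). Rxrg, of the retinoid list, was lower by -1.49 ± 0.36 (adjusted p = 0.0331), lost without 8 single arrays at adjusted p up to 0.102. It read 7.05, 7.15 and 5.68 against 5.07, 5.17 and 5.18, with control array 3 the lowest control, as for the muscle markers. The part of muscle, fat and fibroblast RNA in the falls of these receptors was not tested. The vitamin D receptor Vdr did not pass (1.19 ± 0.63, adjusted p = 0.229). The count was 6 without control array 2. Hox genes, which carry positional identity, gave 5 of 33 lower and 0 higher, with Hoxc4 at -0.79 ± 0.11 (adjusted p = 0.0057) and Hoxb5 at -0.69 ± 0.09 (adjusted p = 0.0047), 13 lower without control array 3 and 2 without control array 1 or oxazolone array 1 or 3.

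Beyond the lists, 252 symbol families of at least 10 genes were ranked by their called share, and several that the lists do not cover are described here. Beta-tubulins (Tubb) gave 5 of 10 higher and 1 lower: Tubb6 read 8.19, 7.78 and 8.15 in control skin and 10.73, 10.21 and 10.60 in oxazolone skin (2.47 ± 0.20, adjusted p = 0.00104), and Tubb2a rose by 2.58 ± 0.28 (adjusted p = 0.00263) and the neuronal isoform Tubb3 by 2.50 ± 0.38 (adjusted p = 0.00824). Caspases gave 6 of 10 higher. The largest were Casp14 of cornifying keratinocytes (3.24 ± 0.76, adjusted p = 0.0308) and the inflammasome caspases Casp4 (2.33 ± 0.53, adjusted p = 0.0285) and Casp1 (2.03 ± 0.52, adjusted p = 0.0391), with calls lost without 5, 5 and 7 single arrays, at adjusted p up to 0.103, 0.0845 and 0.12. Casp6 (1.46 ± 0.18, adjusted p = 0.00405) and Casp8 (1.30 ± 0.22, adjusted p = 0.0118) kept theirs, and 2 caspases were called without control array 1 or 2, oxazolone array 1 or 3 or urushiol array 3. The ABCA lipid transporters gave 7 of 16 lower: Abca5 read 10.54 to 11.17 against 7.05 to 7.52 (-3.58 ± 0.19, adjusted p = 0.000239), Abca8a fell by 3.74 ± 0.56 (adjusted p = 0.00759) and Abca3 was lower too (-1.65 ± 0.11, adjusted p = 0.000558). Anoctamins, a family of chloride channels and scramblases, gave 5 of 10 lower. Ano5, of muscle, fell by 5.90 ± 0.88 (adjusted p = 0.00738) with control array 3 at 8.71 against 12.42 and 11.96, while Ano9 read 13.57, 13.58 and 13.85 against 10.71, 11.42 and 11.10 (-2.59 ± 0.18, adjusted p = 0.000599). The Asb ubiquitin ligase adaptors gave 6 of 18 lower, led by the muscle gene Asb5 (-6.77 ± 0.95, adjusted p = 0.00606), with 12 lower without control array 3 and 2 without control array 1 or 2 or oxazolone array 1 or 2. These families were picked by their calls, so their counts are a description.

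The genes most sharply separated without a large difference were also read out: 6 per direction with the highest moderated statistic among named genes called with an absolute log2 difference under 2. Stat4, which carries interleukin 12 signals, read 5.25, 5.39 and 5.30 in control skin and 6.92, 7.05 and 6.82 in oxazolone skin (1.62 ± 0.07, adjusted p = 0.000154). Each of these 6 values lay below the negative control median of its array. Rgs16, a brake on G proteins, rose by 1.92 ± 0.11 (adjusted p = 0.000351), the aggrecanase Adamts4 by 1.68 ± 0.10 (adjusted p = 0.000455), the protease inhibitor Spink14 by 1.62 ± 0.10 (adjusted p = 0.000455) and Glipr2 by 0.91 ± 0.06 (adjusted p = 0.000558), and the sixth was Ltv1. Laptm4b, a lysosomal membrane protein, read 12.59, 12.59 and 12.42 against 10.72, 10.61 and 10.78 (-1.83 ± 0.07, adjusted p = 0.000154). The epoxide hydrolase Ephx1 fell by 1.68 ± 0.08 (adjusted p = 0.000164), as did the reelin adaptor Dab1 (-1.97 ± 0.09, adjusted p = 0.000164), the T cell adaptor Trat1 (-1.81 ± 0.08, adjusted p = 0.000164), the p53 target Sesn1 (-1.5 ± 0.07, adjusted p = 0.000196) and the carboxypeptidase Cpz (-1.48 ± 0.08, adjusted p = 0.000258). For these 12 genes no left-out array ended the call.

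MicroRNA genes were rarely called. Of 595, 19 (3.19%) were higher and 7 (1.18%) lower, below the shares over all genes, and the arrays do not show whether a probe reads the precursor, the host transcript or the mature RNA. RefSeq gave 42 mature sequences for 24 of the 26, with 42 different seeds, so no seed was shared. The mature sequences of members known in skin or immune cells follow, because the seed (bases 2 to 8, in capitals) sets which transcripts a microRNA can pair with.
miR-31-5p: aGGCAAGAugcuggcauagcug
miR-155-5p: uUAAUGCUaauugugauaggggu
miR-146b-5p: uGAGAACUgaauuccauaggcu
miR-34a-5p: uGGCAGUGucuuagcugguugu
miR-100-5p: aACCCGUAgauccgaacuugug
miR-30c-5p: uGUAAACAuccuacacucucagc
Mir31, known to be active in inflamed epidermis, read 6.40, 6.28 and 7.07 in control skin and 8.46, 8.95 and 8.67 in oxazolone skin (2.11 ± 0.25, adjusted p = 0.00341). Mir155, of activated leukocytes, read 6.04, 6.14 and 5.80 against 6.81, 7.43 and 7.27 (1.18 ± 0.20, adjusted p = 0.0115). Both lay apart on all 6 arrays. Mir146b (0.46 ± 0.10, adjusted p = 0.0268) and Mir34a (0.39 ± 0.10, adjusted p = 0.0395) were higher by less than 1 log2 unit with calls lost without 4 and 7 single arrays, at adjusted p up to 0.0759 and 0.121. Mir1931, which lies within Cdk17 in RefSeq, rose by 1.92 ± 0.32 (adjusted p = 0.0109), and Cdk17 rose by 1.88 ± 0.17 (adjusted p = 0.00133). Aff4 around Mir6920 was also called higher, and Ugp2 around Mir1933 and Mir1a-1hg around Mir1a-1 lower, each like its microRNA gene. Other surrounding genes with values were not called, among them Nudt4, Ak8, Srebf2 and Col27a1 around the higher Mir3058, Mir3088, Mir33 and Mir455. The RefSeq genes around Mir31, Mir155 and Mir146b were not found among the 30142 genes, so they have no call. Of the lower genes, Mir100 (-1.44 ± 0.28, adjusted p = 0.0182) and Mir30c-2 (-0.71 ± 0.15, adjusted p = 0.0239) lost their calls without 4 single arrays each, at adjusted p up to 0.0651 and 0.0824. The muscle microRNA gene Mir1a-1 read 6.99, 7.50 and 5.61 against 4.05, 4.13 and 4.42 (-2.50 ± 0.45, adjusted p = 0.0134, lost without control array 1 at adjusted p = 0.0532), with control array 3 the lowest control, as for the muscle markers. The counts ran from 10 higher without oxazolone array 1 to 40 without control array 3, and from 3 lower without oxazolone array 3 to 14 without control array 3, and 16 were lower after quantile renormalisation.

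Of the other gene classes, 784 of 9650 predicted genes were higher (8.12%) and 136 lower (1.41%), but 457 higher and 289 lower after quantile renormalisation. Sensory receptor genes, which have little known use in skin, gave 12 of 1225 olfactory receptors higher and 0 lower, and 4 of 492 vomeronasal receptors higher and 3 lower. Their medians were 0.06 and 0.05, against 0.06 for all genes. With an array left out, 6 to 23 olfactory receptors were higher, the most without oxazolone array 3, and 1 to 9 vomeronasal receptors. Predicted genes ran from 201 higher without control array 2 to 1323 without control array 3, and from 56 lower without control array 1 to 423 without control array 3.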

How the data were processed

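RNA of mouse skin was measured on 9 Affymetrix arrays, of which 6 are compared. The table holds log2 values deposited by the authors. The submitters' processing notes name Affymetrix Expression Console 1.4, RMA and Transcriptome Analysis Console, with no role or order, while a genome build was not given in the sources used here. Of 65956 transcript clusters, 30604 had 1 symbol, 2146 several and 33206 none in the platform annotation; 827 symbols were updated through RefSeq tables. The cluster with the highest mean over 9 arrays stood for each of 30142 genes. One limma 3.58.1 fit (R 4.3.3) of all 9 arrays, checked on simulated data, gave oxazolone minus control with Benjamini-Hochberg adjustment at 0.05. The simulated noise was independent, with the same spread in each group, so it could not show how unlike control arrays affect the fit. Precision is limited by 3 arrays a group.

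Members and lists were chosen with earlier results of these data known. Genes were named by rule: per list up to 3 called members with the largest rise and 3 with the deepest fall, or, where under 2 were called, the 2 with the largest absolute difference; the 6 steadiest per direction, without predicted genes, under an absolute log2 difference of 2; 3 per family looked at; the called microRNA genes; and a fixed set that ran from Atf4 to Apol9b. Values were already known when further genes were added to the text. Not all genes the rule named are printed. Alternatives were 6 arrays only, a replicate block, filters, cluster means, other scalings, other variance models and single arrays left out.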

Additional observations from a re-analysis of the deposited data

Results flagged for a closer look

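Transcript clusters with no symbol, which no comparison above uses, also differed between oxazolone and control skin. Of 33206 such clusters, 1387 (4.18%) were called higher and 942 (2.84%) lower by limma with the adjustment over the clusters it tested. Nothing further is known of them from the annotation used here.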

How the results depend on the processing

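The counts of 2904 higher and 2085 lower genes depend on which arrays enter. The 6 arrays alone gave 1262 higher and 936 lower genes, with 107 and 71 list members, and kept 41.8% of the calls. Array weights gave 4557 and 3131 genes. Leaving out single arrays gave 1102 to 4749 higher and 974 to 3270 lower genes, and 94 to 244 higher and 74 to 183 lower list members. Without control array 1, 40.2% of the calls were kept, and without control array 3, 93.7%. Quantile renormalisation gave 2098 higher and 2828 lower genes and kept 82.8%, and median centring 2489 and 2606. The share of calls that were higher was 58.2%, 42.6% and 48.9% under the deposited, quantile and centred scales, with medians over all genes of 0.06, -0.01 and -0.01. Quantile renormalisation turned the sign of Clock (-0.47, adjusted p = 0.0868), Psmd1 (-0.02, adjusted p = 0.868) and Xbp1 (-0.14, adjusted p = 0.4), and the mean of clusters that of Ddit3 (-0.01, adjusted p = 0.954). Of 356 named genes, 320 were called. Of these 320, 13 lost their call under quantile renormalisation, 3 under median centring and 110 with the 6 arrays alone. Without control array 1, 102 lost it, and 230 with the replicate block and 6 arrays. The causes were not tested.

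Replicate numbers are shared by the groups, but same-numbered arrays deviated together with r of 0.337, -0.163 and -0.0521, so the numbers were not taken to pair samples. With the replicate block, 9 arrays gave 3088 higher and 1995 lower genes with 191 and 125 list members. With the block and 6 arrays, 464 higher and 244 lower genes and 46 and 19 list members were called, and 13.2% of the calls were kept. Control array 1 was the single control that correlated best with its own number.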
